A study of Drosophila melanogaster with 25 samples.

Results

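RNA recovered with Shep antiserum Gp01 was compared directly with RNA recovered with Su(Hw) antiserum Gp60 in nuclear extracts of Kc167 (Kc) cells. The comparison rests on 5 of the 22 distinct libraries of the series, 2 with Gp01 and 3 with Gp60, chosen by the antiserum and cell line in their labels, with 1 Gp60 library that was listed in duplicate counted once. Both sera are guinea pig sera by their names, so the comparison holds the apparent serum species constant while the target protein differs. The antiserum itself differs along with the target, and the effects of target and antiserum cannot be told apart in this comparison. The other libraries were 6 Kc inputs, 2 Kc precipitates with Shep antiserum Rb6, 3 with Shep antiserum Rb5 and, from BG3 cells, 2 inputs, 2 Shep Rb5 and 2 Su(Hw) Gp60 precipitates. The labels give no mutation, transgene or treatment for any group. Every precipitate came from extract that had first been incubated with preimmune serum on Protein A beads, and every library was made after selection of polyadenylated RNA. No mock precipitate was used here, so RNA held by the beads or by serum in general has no library of its own.

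Su(Hw) is a zinc-finger protein that binds DNA and recruits partner proteins to the gypsy insulator, a kind of element that limits the reach of enhancers and silencers. Shep (Alan shepherd) is an RNA-binding protein with RNA recognition motifs, known as a neural-tissue antagonist of the same insulator. In RIP-seq, a protein is captured with an antiserum and the RNA bound to the beads is sequenced, so a gene's level in the precipitate depends both on its level in the extract and on its recovery. Kc is an embryonic Drosophila line with blood-cell (haemocyte) properties, and BG3 derives from the larval central nervous system.

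The Gp01 libraries held 40008034 and 24423074 counts in genes, and the Gp60 libraries held 6190633, 46077295 and 42405722. Over 5146 genes at 10 CPM or more on average in these libraries, the median absolute log2 difference between libraries of the same antiserum lay between 0.25 and 0.41, and between libraries of different antisera it lay between 0.46 and 0.58. Sequencing was not balanced: Gp60 1 was run on a GA II, Gp60 2 was listed for both GA II and HiSeq, Gp60 3 and Gp01 1 shared HiSeq with PHRED64 qualities, and Gp01 2 was run on HiSeq with PHRED33 qualities. The 1 shared class thus holds 1 library of each antiserum, and the fit links the other classes through the inputs and the other precipitates. Levels below are CPM, gene counts rescaled to a common library total and adjusted with edgeR's TMM factors, and folds are log2 differences with standard errors from edgeR's quasi-likelihood fit, Gp01 minus Gp60. The labels call the libraries biological replicates, but name no separate cultures. The p-values rest on the spread within groups over all 22 libraries of the fit, after the sequencing class, and not on the compared libraries alone.

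Of 9961 genes tested, 820 (8.23%) differed between Gp01 and Gp60 at an edgeR adjusted p under 0.05 and are termed called. There were 425 called genes higher with Gp01 (4.27%) and 395 lower (3.97%), and 2388 genes had an unadjusted p under 0.05. The 2 directions differed in size: 115 called genes were at least 4-fold lower with Gp01, while 5 were at least 4-fold higher. The median log2 fold of the called genes was 1.14 for those higher and -1.45 for those lower, beside -0.08 over all genes tested. In 751 of the 820 called genes the 2 sets of libraries did not overlap in CPM. By the same measure, 3533 of all 9961 tested genes (35.5%) showed no overlap, called or not. Genes both called and without overlap made up 7.54% of all tested genes. The count depends on single libraries and on the samples fitted. It was 7 without Gp01 1, 171 without Gp01 2, 524, 471 and 405 without Gp60 1, 2 and 3, 451 without input 3 and 373 without input 6. With only HiSeq libraries it was 8, all lower with Gp01.

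The plot of fold against input level shows where the calls lie.

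**Figure D1:**
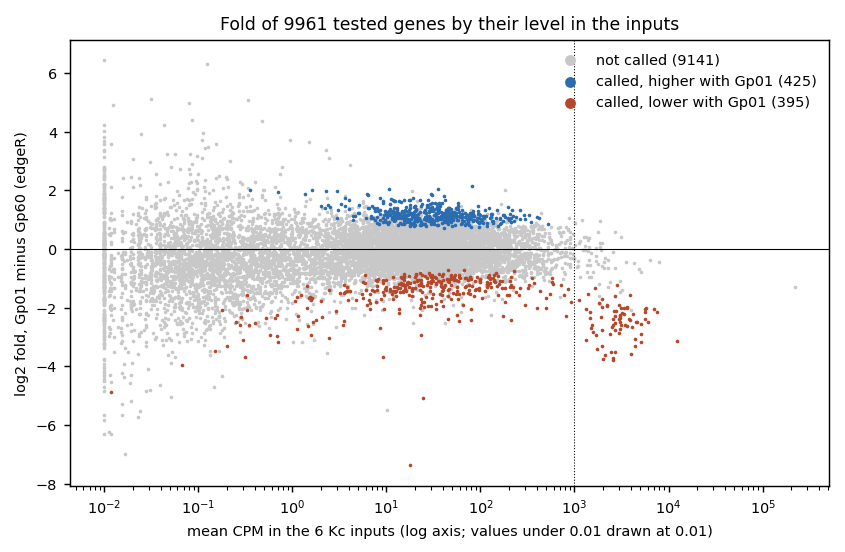
Log2 fold, Gp01 minus Gp60 from edgeR (y axis), against mean CPM in the 6 Kc inputs of library totals (x axis, log scale), 1 point per tested gene, with called genes in blue (425 higher) and red (395 lower). Right of the dotted line at 1000 CPM, 75 of 137 genes were called lower with Gp01 and 0 higher, and the lowest red point is FBgn0003567 at -7.38.

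The files name genes by FBgn identifiers, and 172 of the 16037 could be given a symbol. Of the 80 tested genes with a symbol, 9 were called (11.25%, against 8.23% of all tested genes), 5 higher and 4 lower with Gp01. The libraries of the 2 antisera did not overlap in 29 of the 80, or 36.25%, close to the 35.5% of all tested genes. Of the 80, 34 had at least 10 CPM with 1 of the antisera and 32 had under 1 CPM with both, so a large part of the genes that can be named were barely present in these precipitates. Identifiers without a symbol are given as they stand in the files.

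The 5 genes with a symbol that rose with Gp01 relative to Gp60 were MED1, CG9018, Mau2, Prp31 and AMPKalpha. MED1 encodes a subunit of Mediator, the complex that links transcription factors to RNA polymerase II. It stood at 30.1 and 26.9 CPM in the Gp01 libraries and at 15.5, 17.3 and 13.9 CPM in the Gp60 libraries. Both Gp01 libraries lay above all 3 Gp60 libraries, with the log2 fold at 1.33 ± 0.26 (SE; edgeR adjusted p = 0.00562). CG9018 stood at 101 and 85.0 CPM with Gp01 and at 53.9, 45.7 and 40.4 CPM with Gp60. Its groups did not overlap either, and the log2 fold was 1.32 ± 0.23 (edgeR adjusted p = 0.00276).

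Mau2 encodes the partner of Nipped-B in loading cohesin onto chromosomes. It stood at 20.4 and 14.2 CPM with Gp01 and at 5.16, 9.95 and 9.12 CPM with Gp60, or 1.20 ± 0.35 in log2 fold (edgeR adjusted p = 0.0385). The groups were separate, but the lowest Gp60 value came from Gp60 1, where Mau2 had only 23 counts. Prp31, a splicing factor of the U4/U6 particle, stood at 88.7 and 107 CPM with Gp01 and at 56.3, 63.5 and 39.4 CPM with Gp60. Both Gp01 values were above the 3 Gp60 values, and the log2 fold came to 1.16 ± 0.28 (edgeR adjusted p = 0.0149). AMPKalpha, the catalytic subunit of AMP-activated protein kinase, stood at 51.9 and 58.9 CPM with Gp01 and at 29.2, 23.8 and 24.8 CPM with Gp60. Its Gp60 libraries lay close together and below both Gp01 libraries, and the log2 fold was 1.01 ± 0.27 (edgeR adjusted p = 0.0254).

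Inputs separate these 5 genes by which antiserum stood apart, although the comparisons with input share libraries with the direct comparison. AMPKalpha averaged 22.3 ± 2.23 CPM in the inputs (SD, n = 6) and 25.9 ± 2.87 CPM with Gp60 (SD, n = 3), and Gp01 was above input by 1.26 ± 0.22 (edgeR adjusted p = 0.000727) while Gp60 stood at 0.25 ± 0.18 (edgeR adjusted p = 0.339). MED1 and CG9018 had the same form, at 1.04 ± 0.22 and 1.21 ± 0.19 with Gp01 against input (edgeR adjusted p = 0.00319 and 0.000350). With Gp60 the same genes lay at -0.29 and -0.11 (edgeR adjusted p = 0.261 and 0.628). Mau2 differed: it stood at 0.07 ± 0.30 with Gp01 (edgeR adjusted p = 0.893) and fell with Gp60 by 1.13 ± 0.26 (edgeR adjusted p = 0.00537). Prp31 fell by 0.58 ± 0.20 with Gp60 (edgeR adjusted p = 0.0362) and stood at 0.58 ± 0.23 with Gp01, which was not called (edgeR adjusted p = 0.0858). Over all tested genes, 20.2% were called for Gp01 against input and 24.2% for Gp60 against input.

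None of these 5 rises was called with the other Shep antisera. Against the same Gp60 libraries, Rb6 stood at 0.15 for MED1, -0.61 for CG9018, -0.33 for Mau2, -0.78 for Prp31 and -0.07 for AMPKalpha, and Rb5 stood at 0.16, -0.27, -0.22, -0.57 and -0.11. The edgeR adjusted p ranged from 0.0678 to 0.911 over these 10 values, while 12.3% of all tested genes were called for Rb6 against Gp60 and 26.6% for Rb5 against Gp60. The difference between Gp01 and the other Shep antisera was not tested here. All 5 calls for Gp01 were lost without Gp01 1 and with only HiSeq libraries, at log2 folds of 1.11 to 1.44. Each of these fits leaves 1 library in a compared group. With Gp01 1 counted, the call was lost without any 1 of 9 libraries for Mau2, of 6 for AMPKalpha and of 4 for Prp31. For MED1 and CG9018, Gp01 1 was the only library whose removal ended the call. Fitted with the compared groups only, MED1, CG9018, Mau2 and Prp31 lost theirs (edgeR adjusted p from 0.0672 to 0.115), and without the sequencing class MED1 and Prp31 did (0.0683 and 0.0657), with MED1 at 0.86 and 0.87 and Prp31 at 0.86 and 0.89.

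Among genes without a symbol, the rule for named genes took the 2 largest called rises that had at least 10 CPM in 1 antiserum and no overlap. FBgn0260991 stood at 229 and 110 CPM with Gp01 and at 35.0, 40.6 and 52 CPM with Gp60, or 2.14 ± 0.38 in log2 fold (edgeR adjusted p = 0.00348). Gp01 1 was the highest library by far, and Gp01 2 was also above every Gp60 library. FBgn0030093 stood at 118 and 78.8 CPM with Gp01 and at 31.4, 29.3 and 32.3 CPM with Gp60, or 2.06 ± 0.30 in log2 fold (edgeR adjusted p = 0.000886). Its 3 Gp60 values were nearly level. Against input, FBgn0260991 rose with Gp01 by 1.13 ± 0.32 and fell with Gp60 by 1.01 ± 0.28 (edgeR adjusted p = 0.0177 and 0.0145). FBgn0030093 rose by 1.74 ± 0.25 with Gp01 (edgeR adjusted p = 0.000162) and stood at -0.32 with Gp60 (edgeR adjusted p = 0.272). Without Gp01 1, which leaves 1 Gp01 library, the log2 folds were 1.95 and 2.07 and both calls were lost (edgeR adjusted p = 0.167 and 0.0623), as they were with HiSeq libraries only (0.0608 and 0.0835).

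**Figure D2:**
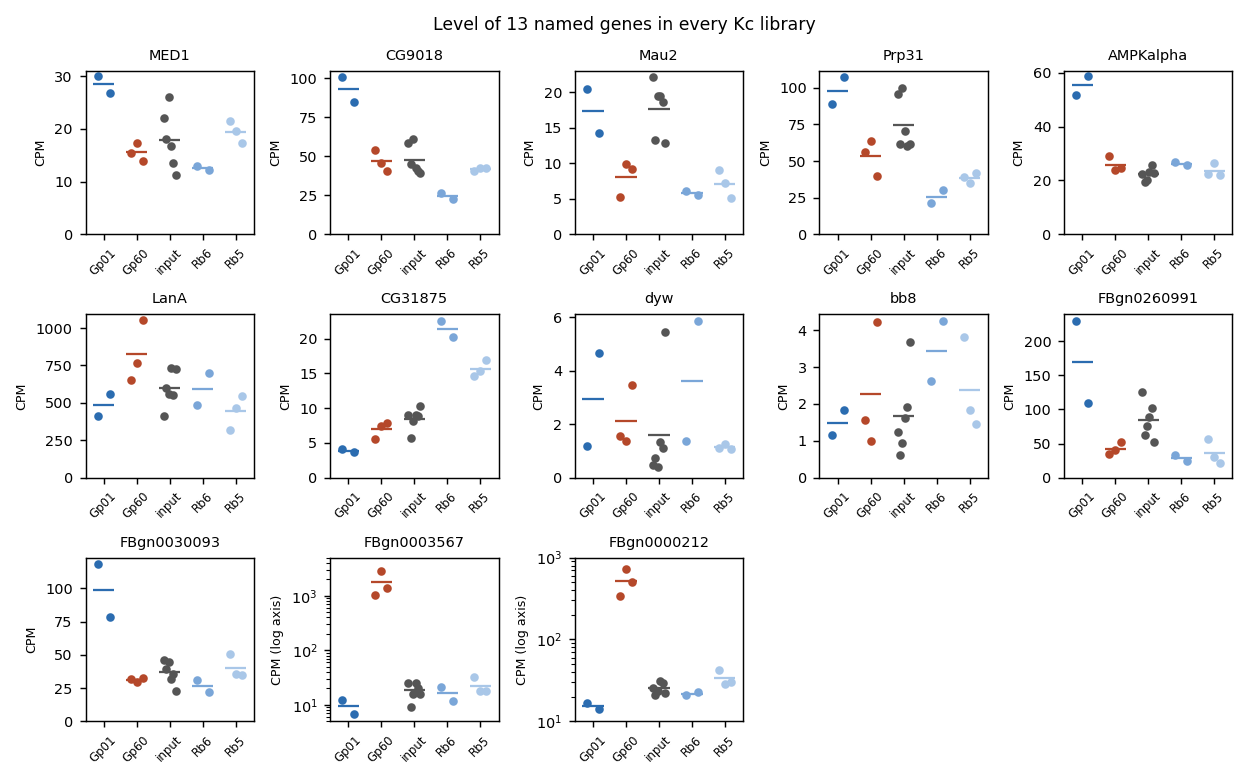
Level in CPM (y axes; log scale for FBgn0003567 and FBgn0000212) of 13 named genes in each Kc library of 5 groups (x axes: Shep Gp01, Su(Hw) Gp60, input, Shep Rb6, Shep Rb5), with 1 point per library and a line at each group's mean. FBgn0003567 and FBgn0000212 stand far above every other group with Gp60 alone, AMPKalpha is high with Gp01 alone, and the groups of dyw and bb8 overlap.

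The largest difference of the comparison was a fall with Gp01 at FBgn0003567. It stood at 12.1 and 6.76 CPM with Gp01 and at 1043, 2887 and 1401 CPM with Gp60. All 3 Gp60 libraries were far above both Gp01 libraries, with the log2 fold at -7.38 ± 0.71 (edgeR adjusted p = 0.000109), or 167-fold from the fit. Libraries without overlap were a condition of the rule that named this gene. The Kc inputs ranged from 9.09 to 25.6 CPM, so the difference lay with Gp60, which was above input by 6.45 ± 0.42 (edgeR adjusted p = 2.95e-07), while Gp01 stood at -0.93 ± 0.49 against input (edgeR adjusted p = 0.192). The counts behind these levels were 724 and 251 with Gp01 and 4646, 87086 and 53123 with Gp60.

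FBgn0000212 had the second largest called fall under the rule. It stood at 16.6 and 14.1 CPM with Gp01 and at 341, 734 and 499 CPM with Gp60. The groups did not come near each other, and the log2 fold was -5.07 ± 0.58 (edgeR adjusted p = 0.000291), or 33.6-fold. Inputs ranged from 21.2 to 30.7 CPM, and Gp60 was above them by 4.32 ± 0.35 (edgeR adjusted p = 1.59e-06), while Gp01 stood at -0.74 ± 0.43 (edgeR adjusted p = 0.240). The other Shep antisera also stood far below Gp60 at both genes: Rb6 at -6.57 and -4.56 and Rb5 at -6.14 and -3.85 (edgeR adjusted p at most 0.000133). The 2 genes kept their call under each of the 35 alternative settings, including the fits without Gp01 1 and with only HiSeq libraries. Their log2 folds then ranged from -7.85 to -6.43 and from -5.27 to -4.13.

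LanA encodes the laminin alpha chain of basement membranes, which haemocytes are known to secrete. It stood at 412 and 558 CPM with Gp01 and at 654, 767 and 1056 CPM with Gp60. Both Gp01 libraries were below all Gp60 libraries, with the log2 fold at -1.14 ± 0.29 (edgeR adjusted p = 0.0233). Its inputs averaged 598 ± 121 CPM (SD, n = 6), between the antisera, and neither antiserum was called against input (edgeR adjusted p = 0.103 for Gp01 and 0.0520 for Gp60). The call was lost without Gp01 1, Gp01 2 or Gp60 3 (edgeR adjusted p from 0.104 to 0.396), with HiSeq libraries only (0.109), and without scaling beyond library totals, where the log2 fold was -0.22. It was also lost without the sequencing class, at -0.77 (edgeR adjusted p = 0.131), with the compared groups only, at -0.80 (0.183), and with the replicate number as a block, at -0.61 (0.137).

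CG31875 stood at 4.12 and 3.67 CPM with Gp01 and at 5.61, 7.49 and 7.86 CPM with Gp60. The groups were separate, with the log2 fold at -1.01 ± 0.27 (edgeR adjusted p = 0.0274). The other Shep antisera lay on the opposite side of the same Gp60 libraries. Rb6 stood at 22.6 and 20.3 CPM and was higher than Gp60 by 1.44 ± 0.26 (edgeR adjusted p = 0.00181). Rb5 stood at 14.7, 15.3 and 16.9 CPM and was higher by 1.28 ± 0.23 (edgeR adjusted p = 0.000531). CG31875 was therefore lowest with Gp01 and highest with Rb6 among the 5 kinds of Kc library, with no overlap between Gp01, Gp60 and Rb5. Without any 1 of 6 libraries the call for Gp01 was lost (edgeR adjusted p from 0.0568 to 0.287). It was also lost with limma voom, no filter, the compared groups only, HiSeq libraries only, the replicate block and no scaling (adjusted p from 0.0505 to 0.879), the last at a log2 fold of -0.09.

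The genes dyw and bb8 were called lower with Gp01 although their levels did not separate. The dyw gene, known from work on daytime sleep in flies, stood at 1.20 and 4.66 CPM with Gp01 and at 1.57, 1.36 and 3.48 CPM with Gp60. The groups overlapped and the Gp01 mean was the higher one, while the fit with sequencing class put the log2 fold at -1.63 ± 0.38 (edgeR adjusted p = 0.0134). The highest values of dyw came with HiSeq PHRED33, at 4.66 CPM in Gp01 2, 5.44 CPM in input 6 and 5.84 CPM in Rb6 2. With PHRED64 it ranged from 1.12 CPM in input 5 to 3.59 CPM in BG3 Gp60 2. The fold without the class was 0.40, and the part of the class in these levels was not tested. The bb8 gene, a glutamate dehydrogenase relative known from sperm development, stood at 1.15 and 1.83 CPM with Gp01 and at 1.57, 0.99 and 4.22 CPM with Gp60. Its groups overlapped too, with the log2 fold at -1.66 ± 0.45 (edgeR adjusted p = 0.0279), which was lost without the class. CG31875, dyw and bb8 lie outside the rule for named genes and are given because every called gene with a symbol is.

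In the 1 sequencing class that both antisera share, Gp01 1 could be set against Gp60 3, with no test. The log2 difference was 1.11 for MED1, 1.32 for CG9018, 1.15 for Mau2, 1.17 for Prp31 and 1.07 for AMPKalpha. It was -1.36 for LanA, -0.92 for CG31875, -1.49 for dyw, -1.82 for bb8, -6.85 for FBgn0003567 and -4.90 for FBgn0000212. For FBgn0260991 and FBgn0030093 it was 2.14 and 1.87. These values had the sign of the fit in each case, and both libraries are in that fit. The same held for all 425 genes called higher and all 395 called lower, so the agreement is no separate check of the named genes.

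The antisera also differed in how the counts were spread over genes. In the Kc inputs, 137 genes had at least 1000 CPM of library totals, a level that is not scaled by gene length. These genes took 39.9% and 40.7% of gene counts in the Gp01 libraries and 71.7%, 73.0% and 62.9% in the Gp60 libraries. The groups did not overlap, and the inputs, from 58.5% to 61.5%, lay between them. The means were 40.3% ± 0.520 (SD, n = 2) and 69.2% ± 5.52 (SD, n = 3), a difference of -28.9 percentage points, with the Gp01 share below all 3 Gp60 shares in both libraries. An exact permutation test gave a two-sided p of 0.2, which is the smallest that 2 libraries against 3 allow, and 0.267 after Benjamini-Hochberg adjustment over 8 such values. The other Kc Shep precipitates lay at 43.2%, 43.5% and 40.7% with Rb5 and at 50.0% and 50.4% with Rb6.

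Correspondingly, 225 and 207 genes held the upper 50% of gene counts in the Gp01 libraries, against 46, 43 and 70 in the Gp60 libraries and 59 to 83 in the inputs. The gene with most counts in the inputs, FBgn0085813, held 6.17% and 6.68% with Gp01 and 9.46%, 8.71% and 4.24% with Gp60. Its groups overlapped, its log2 fold was -1.29 ± 0.64 (edgeR adjusted p = 0.227), and leaving it out gave a difference of -30.6 points for the other highly counted genes. Genes at 10 to 100 CPM in the inputs took 23.3% and 22.6% of counts with Gp01 and 9.80%, 9.54% and 13.4% with Gp60, so the shares ran the other way there. These shares rest on at least 6190633 gene counts in each library, and reads without molecular identifiers are not independent molecules, so the counting error understates the true one.

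**Figure D3:**
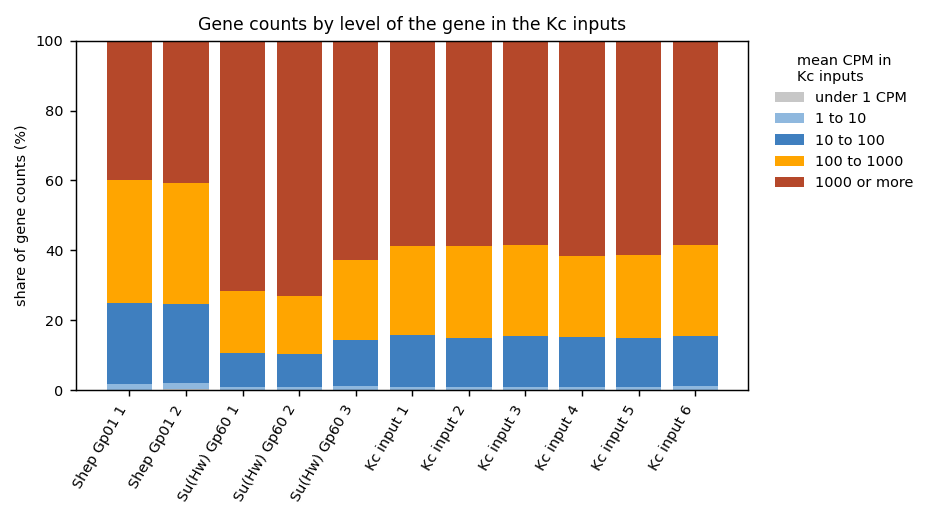
Share of gene counts in percent (y axis, from 0 to 100) held by genes grouped by their mean CPM in the 6 Kc inputs, for each Gp01, Gp60 and input library (x axis). The top segment, genes at 1000 CPM or more, covers 39.9% and 40.7% with Gp01 and 62.9% to 73.0% with Gp60.

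Gene by gene, 75 of these 137 genes were called lower with Gp01 (54.7%, against 3.97% of all tested genes called lower) and 0 were called higher. Their median log2 fold was -1.86, beside -0.08 over all genes tested, and 100 of them had both Gp01 libraries below all Gp60 libraries (73.0%, against 16.6% of all tested genes). The class was not uniform: 63 genes lay below -2, 22 between -2 and -1, 33 between -1 and 0, and 19 above 0, with extremes of -3.79 and 0.99. Against input the median was -0.78 with Gp01 and 0.87 with Gp60, so the 2 antisera lay on either side of the input. In the shared sequencing class the median difference of Gp01 1 and Gp60 3 was -1.59. Without Gp01 1 the class had 4 calls and without Gp01 2 it had 20, and with only HiSeq libraries it had 0, while its median stayed at least 1.63 below that of all genes under each alternative that kept the class.

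Genes at lower input levels were called in both directions. At 100 to 1000 CPM, 49 of 988 genes were higher with Gp01 and 59 lower, with a median log2 fold of -0.05. At 10 to 100 CPM, 322 of 3982 were higher (8.09%) and 179 lower (4.50%), with a median of 0.09, and this class held 322 of the 425 genes called higher. At 1 to 10 CPM, 52 of 1867 were higher and 62 lower. Below 1 CPM, 2 of 2987 were higher and 20 lower.

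These folds are relative to the other RNA of the same library, and TMM factors differed widely, at 1.50 and 1.52 for Gp01 and 0.72, 0.65 and 0.89 for Gp60. Without scaling beyond library totals, the median log2 fold of all genes was 0.83, 3212 genes were called higher with Gp01 and 107 lower, and the 137 highly counted genes had a median of -0.93 with 65 called lower and 15 higher. Whether less RNA of a gene was recovered or more of the others cannot be told apart in such data, as fewer cells and less RNA per cell cannot.

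Reads placed once that the counting assigned to no gene feature, which can include intronic or opposite-strand reads, made up 8.86% and 15.8% of uniquely placed reads with Gp01, 21.9%, 24.1% and 22.8% with Gp60, and 37.0% to 54.6% in the inputs. The groups did not overlap (exact permutation test, two-sided p = 0.2, the smallest possible). The part of these unassigned reads and of depth in the differences above was not tested. Without the sequencing class as a covariate, 704 genes were called, 488 of them among the 820.

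BG3 cells gave a comparison of the same proteins that shares no library with the Kc comparison, with Rb5 in place of Gp01 and all 4 libraries in 1 sequencing class, and 14.3% of all tested genes were called in it. FBgn0003567 stood at 15.8 and 20.7 CPM with Rb5 and at 583 and 1644 CPM with Gp60. The groups lay far apart there too, with the log2 fold at -5.93 ± 0.65 (edgeR adjusted p = 3.31e-05). FBgn0000212 stood at 63.5 and 31.6 CPM with Rb5 and at 145 and 575 CPM with Gp60, or -2.92 ± 0.50 in log2 fold (edgeR adjusted p = 0.000959). LanA fell as well, from 528 and 391 CPM with Gp60 to 184 and 211 CPM with Rb5, with the log2 fold at -1.22 ± 0.28 (edgeR adjusted p = 0.00649).

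The 7 named genes that rose with Gp01 in Kc cells were not called in BG3 cells, where Shep was precipitated with another serum. The log2 folds there were -0.46 ± 0.26 for MED1, -0.14 ± 0.22 for CG9018, -0.19 ± 0.34 for Mau2, -0.25 ± 0.26 for Prp31 and 0.05 ± 0.25 for AMPKalpha (edgeR adjusted p from 0.251 to 0.921). FBgn0260991 and FBgn0030093 stood at -0.40 and 0.22 (edgeR adjusted p = 0.526 and 0.676). CG31875 was higher with Rb5 in BG3 cells, by 1.08 ± 0.25 (edgeR adjusted p = 0.00791), where it was lower with Gp01 in Kc cells. Antiserum and cell line change together between these comparisons and cannot be told apart, and the difference between them was not tested.

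**Figure D4:**
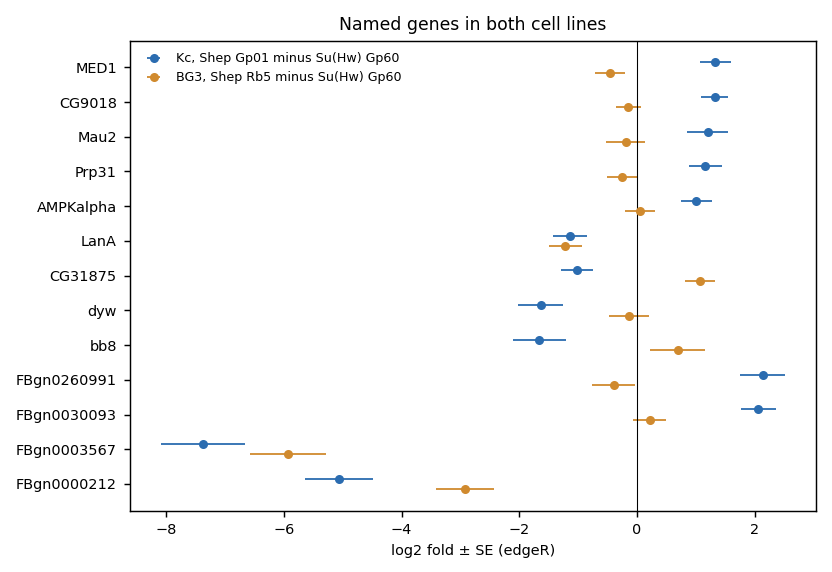
Log2 fold ± SE from edgeR (x axis) of 13 named genes (y axis), for Shep Gp01 minus Su(Hw) Gp60 in Kc (blue) and Shep Rb5 minus Su(Hw) Gp60 in BG3 (orange). FBgn0003567, FBgn0000212 and LanA lie left of 0 in both lines, and CG31875 lies on opposite sides, at -1.01 and 1.08.

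Over all genes, 97 of the 395 genes lower with Gp01 in Kc were also called lower with Rb5 in BG3, which is 24.6% of the Kc calls and 14.8% of the 657 BG3 calls, against 6.60% of all tested genes. A further 64 were called in the opposite direction in BG3 (16.2%, against 7.73%). Outside the 137 highly counted genes the overlap was 44 of 320 (13.75%, against 6.04%). Of the 137, 64 were called lower with Rb5 in BG3 (46.7%) and 2 higher, with a median log2 fold of -1.27. Of the 425 genes higher with Gp01 in Kc, 16 were called higher in BG3, or 3.76% of the Kc calls and 2.08% of the 770 BG3 calls, against 7.73% of all tested genes. Another 13 were called lower in BG3 (3.06%, against 6.60%), so the shares in both directions were below those of all tested genes, and these differences were not tested.

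Of 25 gene lists, from insulator proteins to cell type markers, 9 had a tested member with a symbol. The other 16 had no member that could be matched by symbol. They include the insulator proteins and the trithorax group with the Brahma complex. Genes of any list may thus stand unrecognised among the called genes without a symbol. Of the 12 distinct members matched in the 9 lists 1 was called, near the 8.23% of all tested genes: LanA, in the haemocyte list and the list of extracellular matrix genes. The other haemocyte gene, Idgf3, a secreted chitinase-like growth factor, stood at 119 and 107 CPM with Gp01 and at 64.6, 80.7 and 69.4 CPM with Gp60. The groups did not overlap, but its log2 fold of 0.68 ± 0.31 was not called (edgeR adjusted p = 0.181). Both genes were well counted in the Kc inputs, at 598 ± 121 and 162 ± 29.5 CPM (SD, n = 6). The defining haemocyte, neuronal, fat body and germline markers have no symbol here, so only these 2 genes bear on the label Kc. LanA stood at 234 ± 7.59 CPM in the BG3 inputs too (SD, n = 2), so its level does not by itself tell the lines apart. The muscle gene Mlp60A and the testis genes Mst98Ca and betaTub85D were near 0 in the inputs, at 0.471, 0.0660 and 0.0664 CPM, and were not called (edgeR adjusted p from 0.367 to 0.920).

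The adhesion gene mfas stood at 17.5 and 8.95 CPM with Gp01 and at 3.14, 4.77 and 2.77 CPM with Gp60. Its libraries separated by antiserum, and the log2 fold of 1.97 ± 0.88 was not called (edgeR adjusted p = 0.188). Asx, a Polycomb group gene, and Ts, which encodes thymidylate synthase, stood at -0.52 and 0.43 (edgeR adjusted p = 0.557 and 0.489).

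Of the nuclear noncoding RNAs, 4 were tested and 0 called, where 8.23% of all tested genes were (edgeR adjusted p from 0.464 to 0.918, with the smallest unadjusted p at 0.203). The roX1 RNA (lncRNA:roX1), a component of the dosage compensation complex of males, had 19 and 7 counts with Gp01 and 3, 35 and 5 with Gp60. These were 0.317 and 0.189 CPM with Gp01 and 0.673, 1.16 and 0.132 CPM with Gp60, beside 0 to 0.125 CPM in the inputs. Its groups overlapped, at 0.21 ± 0.87 (edgeR adjusted p = 0.918), although each antiserum was called above input, at 3.62 ± 0.93 for Gp01 and 3.41 ± 0.84 for Gp60 (edgeR adjusted p = 0.0106 and 0.00821). The inputs held at most 2 counts each, so these folds against input depend on the fit's handling of counts near 0. Rb5 was called below the same Gp60 libraries, at -4.01 ± 0.99 (edgeR adjusted p = 0.00617), and the fold of Gp01 minus Gp60 was -1.33 without the sequencing class.

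The plot of calls by setting shows how far the counts rest on Gp01 1.

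**Figure D5:**
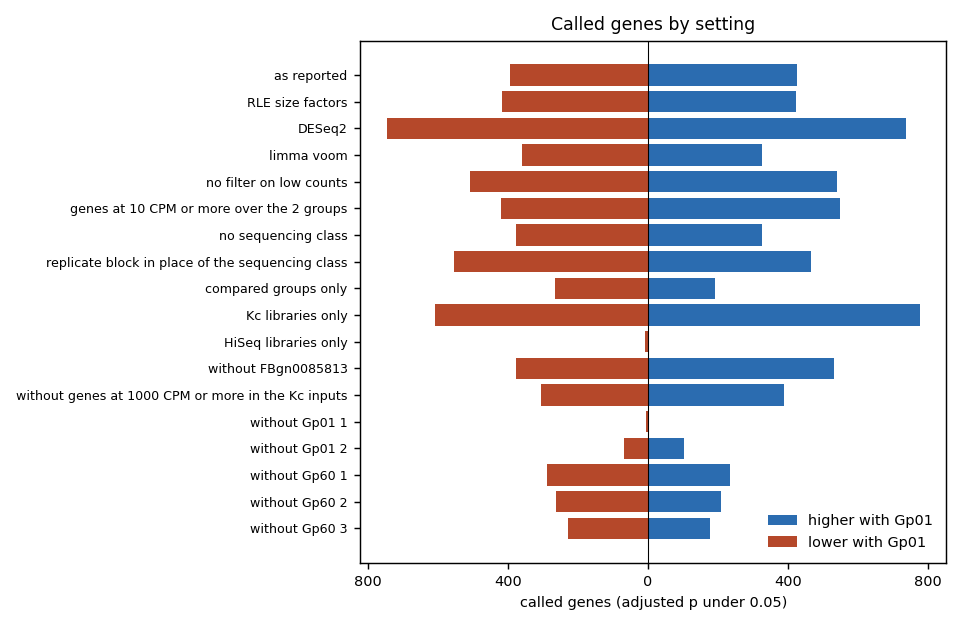
Number of called genes (x axis) higher with Gp01 (blue, right) and lower with Gp01 (red, left) as reported and under the settings named on the y axis, with the fit without scaling beyond library totals not drawn. As reported there were 425 and 395 calls; without Gp01 1 there were 0 and 7, and with only HiSeq libraries 0 and 8.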

How the data were processed

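The authors deposited raw counts of reads per gene for each sample. The build dm3 and the tools TopHat2, Bowtie2, cutadapt 1.2.1, DESeq and HTSeq are named in the submitters' processing notes. The sources used here do not give the strand setting or the annotation, so counts of overlapping and antisense genes are uncertain. Lines that name no gene were left out. They held 50.2% to 83.4% of all counts in the 5 libraries compared, most of them reads with several positions, at 35.0% to 79.6%.

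Of 25 samples, 3 were listed in duplicate with identical files and counted once. All 22 libraries in 8 groups, with 4 sequencing classes as a covariate, were fitted with edgeR 4.0.16 (limma 3.58.1, R 4.3.3), using TMM factors and the robust quasi-likelihood test. Genes passed edgeR's filter with its minimum count at 10 and its minimum total at 15, and p-values were adjusted by Benjamini-Hochberg at 0.05 over 9961 genes. The fit was tested on counts simulated for these 9961 genes from a model fitted to these data. It recovered 14% of 100 genes changed 2-fold and 88% of 100 changed 4-fold. There were 10 false calls among 112 (8.93%, above the 0.05 aimed at). The simulation set the antisera equal at all other genes and changed no gene at a low level, so recovery in these data may differ. Differences within the shared class used log2 CPM at a prior count of 2.

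Symbols came from a RefSeq table of another assembly, used for names only, and no sequence or coordinate is given. Named genes were the called genes with a symbol, at least 10 CPM in 1 antiserum and no overlap (up to 12 each way). To these came up to 3 called members of each list and 2 identifiers without a symbol each way. Added whatever their values were 7 genes of the insulator and noncoding RNA field, of which roX1 had a symbol. The rest of the 7 were not looked up by identifier, so any of them may stand among the genes without a symbol. The antisera, lists and rules were chosen with earlier results of these data known. Alternatives were RLE factors, DESeq2 1.42.0, limma voom, other filters, other covariates, other samples and each library left out. The replicate numbers 1 and 2 of the antisera did not pair the libraries: the deviations of equal numbers from the group means correlated at r = -0.024 across 9961 genes, which are not independent.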

Additional observations from a re-analysis of the deposited data

Results flagged for a closer look

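Over the 6 Kc inputs, 18 genes and shares were checked for a library far from the others, and 1 stood out. The level of dyw in input 6 was 5.44 CPM, while the other inputs lay between 0.393 and 1.34 CPM, so the gap to the nearest was 0.813 of the whole range. Chance alone flags about 1 in 20 such groups. Input 6 is the only Kc input run with PHRED33 qualities, and the 2 precipitates of that class were also high for dyw, at 4.66 CPM in Gp01 2 and 5.84 CPM in Rb6 2.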

How the results depend on the processing

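The number of called genes, as reported 820 with 425 higher and 395 lower with Gp01, was 1484 with DESeq2 (737 higher, 747 lower) and 1387 with Kc libraries only (777 higher, 610 lower). It was 455 with the compared groups only (190 higher, 265 lower) and 8 with HiSeq libraries only (0 higher, 8 lower, with 1751 genes at an unadjusted p under 0.05), where Gp60 3 is a lone library assumed to vary like the other groups. Leaving out 1 library at a time gave 7 to 985 calls, 0 to 538 of them higher and 7 to 453 lower. The lowest count came without Gp01 1, which leaves Gp01 2 alone and 1133 genes at an unadjusted p under 0.05. The cause was not tested. The settings chosen after seeing the data included no scaling beyond library totals, with 3319 calls (3212 higher, 107 lower, so 96.8% higher). The fit with the replicate number as a block gave 1020 calls (465 higher, 555 lower), 543 of them among the 820. RLE factors, limma voom, both other filters, no sequencing class and leaving out FBgn0085813 or all highly counted genes gave totals between 687 and 1049, though with no sequencing class only 488 of its 704 calls were among the 820, and with limma voom 666 of 687.

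The highly counted class had 75 calls lower as reported, 4 to 82 with 1 library left out and 0 with HiSeq libraries only. Its share of gene counts differed by -32.1 to -27.0 points with 1 library left out, by -25.1 with genes at 500 CPM or more and by -28.4 at 2000 CPM or more.

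The fold of roX1 reversed to -1.33 without the sequencing class and with the compared groups only, to -1.75 with the replicate block, to -0.32 without Gp01 1 and to -1.90 without Gp60 3, and lay at up to 0.81 with other libraries left out, with 3 to 35 counts behind it in each library. The fold of dyw reversed to 0.40 without the class, 0.39 with the replicate block and 0.35 with the compared groups only. The block also ended the calls of Mau2, Prp31, LanA, bb8 and CG31875. Depth limits Gp60 1 most, with 6190633 gene counts.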
